A study of Mus musculus with 31 samples.

Results

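Pyruvate made by glycolysis is carried into mitochondria, where the pyruvate dehydrogenase (PDH) complex turns it into acetyl-CoA or pyruvate carboxylase turns it into oxaloacetate. PDH kinases phosphorylate and switch off the PDH complex, and PDH phosphatases reverse this. The tricarboxylic acid (TCA) cycle then oxidises acetyl-CoA through citrate, 2-oxoglutarate, succinate, fumarate and malate, and malic enzymes return malate to pyruvate while making NADPH or NADH. Transcripts of 33 genes of these steps were followed in Panc02 cells, a mouse pancreatic adenocarcinoma line. They were chosen by symbol from among 55487 to 56980 genes listed in the tables, and each had 1 row in each of 3 tables of read counts. By role they were the pyruvate carriers Mpc1 and Mpc2, the PDH complex genes Pdha1, Pdhb, Dlat, Dld and Pdhx, the kinases Pdk1, Pdk2, Pdk3 and Pdk4, the phosphatases Pdp1 and Pdp2, Pcx and Pck2, the genes Cs, Aco1, Idh1, Idh2, Idh3a, Idh3b and Idh3g of the path from citrate to 2-oxoglutarate, the genes Ogdh, Dlst, Sucla2, Suclg1, Suclg2, Fh1, Mdh1 and Mdh2 of the rest of the cycle, and the malic enzymes Me1, Me2 and Me3.

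The first table held spheroids grown in Matrigel with control medium (Ctrl), with medium conditioned by unstimulated macrophages (M0-CM) or with medium conditioned by macrophages given IFNγ and LPS (M1-CM), with 3 samples each. The second held wild-type (WT) and Cxcl5-/- cells in 2D culture or as 3D spheroids, in 4 groups of 3 samples. The third, called the rescue experiment here, held 3D cultures of WT cells (n = 2), Cxcl5-/- cells (n = 2), Cxcl5-/- cells carrying a retroviral stabilised mutant of Hif1a (Hif1a OE Cxcl5-/-, n = 3) and Cxcl5-/- cells overexpressing Myc (Myc OE Cxcl5-/-, n = 3). Cxcl5 was disrupted with CRISPR/Cas9 delivered by lentivirus and puromycin selection, and whether the cells were a clone was not stated in the sources used here. The methods of the study speak of biological replicates for its experiments in general, but no source used here ties the sequenced samples of a group to separate cultures, so p-values measure the spread between samples, which may be technical.

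Total counts ranged from 41542533 to 78498230 per sample. Levels are given as CPM, the count divided by the library total after TMM scaling, a correction for library composition. Of the tested genes a gene was called where the adjusted p of edgeR's quasi-likelihood test was under 0.05, and log2 fold changes are given ± SE. The targeted gene did not follow its label in 3D. Cxcl5 was 28.5, 24.5 and 28.0 CPM in 3D WT, and the libraries labelled 3D Cxcl5-/- held 65.5, 40.9 and 45.4 CPM, which differed by 0.91 ± 0.14 (adjusted p = 0.00017) on the log2 scale. It was lower in rescue Cxcl5-/- than in rescue WT, by a log2 fold change of -0.78 ± 0.14 (adjusted p = 0.0011), and counts over a whole gene cannot show a small edit. Overexpressed Myc was visible, with a log2 fold change of 4.54 ± 0.16 (adjusted p = 1.9e-08) against rescue Cxcl5-/-. Hif1a rose by 0.94 ± 0.10 (adjusted p = 3.0e-05) in Hif1a OE Cxcl5-/- and by 0.90 ± 0.10 (adjusted p = 3.1e-05) in Myc OE Cxcl5-/-. Epithelial identity was partial: of 8 ductal markers, Krt8 was the highest in every group, and Epcam and Cdh1 were at or near 0. Of 7 macrophage markers, Itgam and C1qa were at or near 0, and the summed level was 1.9 to 25.7 CPM over all samples. Cd68 or Lyz2 was the highest of them in every group. The mean of that marker ran from 1.34 CPM (Cd68, 2D WT) to 13.6 CPM (Lyz2, Myc OE Cxcl5-/-). It was 4.55 CPM (Cd68) in 3D WT and 11.7 CPM (Lyz2) in 3D Cxcl5-/-. Libraries of rescue WT stood apart by a high floor of reads over genes that these cells should not use: olfactory receptor genes held 0.117 to 0.119 CPM per kilobase of exon there, against 0.00245 to 0.0297 in the other samples.

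Hif1a and Myc are transcription factors that bind short DNA elements, ACGTG or GCGTG for the hypoxia response and CACGTG, the E-box, for Myc. For 30 of the 33 genes RefSeq gave a start site on GRCm38.p6, and the 250 bases upstream of the outermost start were searched on both strands. An E-box also counts as a match to ACGTG. Of the 30 windows, 8 held ACGTG, 15 held GCGTG and 3 held CACGTG (Pdk2, Pdp2 and Pcx), and over all 32851 windows of that length the shares were 16.6%, 28.2% and 6.02%. These matches describe letters and are no evidence of binding. Large changes were not confined to genes with matches. Me3, with a log2 fold change of 2.10 between genotypes in 3D, had 0 matches to each element. Pdp1, Idh3a and Me2 had no window. The windows of Pdk1, Pdk2 and Pcx were picked from genes with large changes in 3D culture or between genotypes. They are shown 5′ to 3′ on the strand of the gene, with the matches in capitals. They lie at chr2:71872974-71873223 (+), chr11:95041372-95041621 (-) and chr19:4510222-4510471 (+).
Pdk1: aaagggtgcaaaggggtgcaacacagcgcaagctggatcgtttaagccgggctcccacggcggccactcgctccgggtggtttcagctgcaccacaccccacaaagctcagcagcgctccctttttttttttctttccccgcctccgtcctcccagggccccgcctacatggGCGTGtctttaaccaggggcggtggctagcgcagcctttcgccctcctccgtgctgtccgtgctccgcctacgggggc
Pdk2: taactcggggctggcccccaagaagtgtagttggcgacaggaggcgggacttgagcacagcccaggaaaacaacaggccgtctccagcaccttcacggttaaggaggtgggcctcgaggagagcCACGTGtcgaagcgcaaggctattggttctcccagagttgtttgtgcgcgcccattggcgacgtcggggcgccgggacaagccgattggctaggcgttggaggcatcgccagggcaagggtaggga
Pcx: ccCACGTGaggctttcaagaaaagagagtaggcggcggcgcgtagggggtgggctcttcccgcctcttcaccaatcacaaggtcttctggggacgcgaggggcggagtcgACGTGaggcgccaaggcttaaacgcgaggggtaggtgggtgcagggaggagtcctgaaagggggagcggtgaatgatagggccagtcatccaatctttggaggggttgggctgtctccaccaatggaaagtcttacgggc
The Pdk1 window had 1 GCGTG and no ACGTG. In the Pdk2 window the capitals mark 1 E-box, and the Pcx window held an E-box and a further ACGTG.

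The step from 2D to 3D culture of WT cells raised kinases and lowered most of the PDH complex and cycle. Of the 32 genes tested, 8 rose and 19 fell, a median log2 fold change of -0.35 against 0.00 over all 21367 genes tested. Over all genes, 22.2% were called higher and 22% lower. All 5 PDH complex genes and both carriers fell, 4 of 7 genes from citrate to 2-oxoglutarate and 7 of 8 genes from 2-oxoglutarate to oxaloacetate fell, and all 3 tested kinases rose. Scaling by library totals, which moved the median of all genes to -0.21, gave 6 higher and 20 lower. Over all 21367 genes it gave 3563 higher and 6712 lower.

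Pdk1, a PDH kinase that is a known target of hypoxia signalling, had 36.5, 37.8 and 37.0 CPM in 2D WT and 350.4, 298 and 336 CPM in 3D WT, with a log2 fold change of 3.14 ± 0.09 (adjusted p = 3.2e-11). Every 3D sample lay above every 2D sample. Groups without overlap were not counted over all genes, here or below. Such a gap also occurred in genes not called, such as Me3 in this comparison. Pdk2 was scarce, with 0.308, 0.302 and 0.459 CPM in 2D WT and 1.69, 1.56 and 1.84 CPM in 3D WT, and rose by 2.24 ± 0.25 (adjusted p = 7.8e-06) on the log2 scale. Pdk3 rose less, by 0.38 ± 0.11 (adjusted p = 0.0091), from 62.7 to 66.4 CPM to 74.1 to 89.9 CPM. Pdk4 had no count in 27 of 31 samples and at most 19 counts in the others, all in the rescue experiment, and was not tested in the other tables. Per kilobase of exon the summed kinase level changed its makeup. Pdk3 made up 83.8% ± 0.633 (SD, n = 3) of it in 2D WT and 43.5% ± 0.915 in 3D WT, while Pdk1 went from 15.8% ± 0.645 to 55.8% ± 0.927. Pdk2 stayed under 1% in both. Shares use the union of annotated exons as length.

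The phosphatases differed from each other. Pdp1 rose from 30.3, 32.2 and 32.2 CPM to 49.6, 49.6 and 57.1 CPM, with a log2 fold change of 0.72 ± 0.09 (adjusted p = 1.8e-05), and the groups did not overlap. Pdp2 had 22.0, 21.5 and 21.9 CPM in 2D WT and 24.1, 22.1 and 20.7 CPM in 3D WT, and its log2 fold change of 0.03 ± 0.12 did not pass the test (adjusted p = 0.85).

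**Figure D1:**
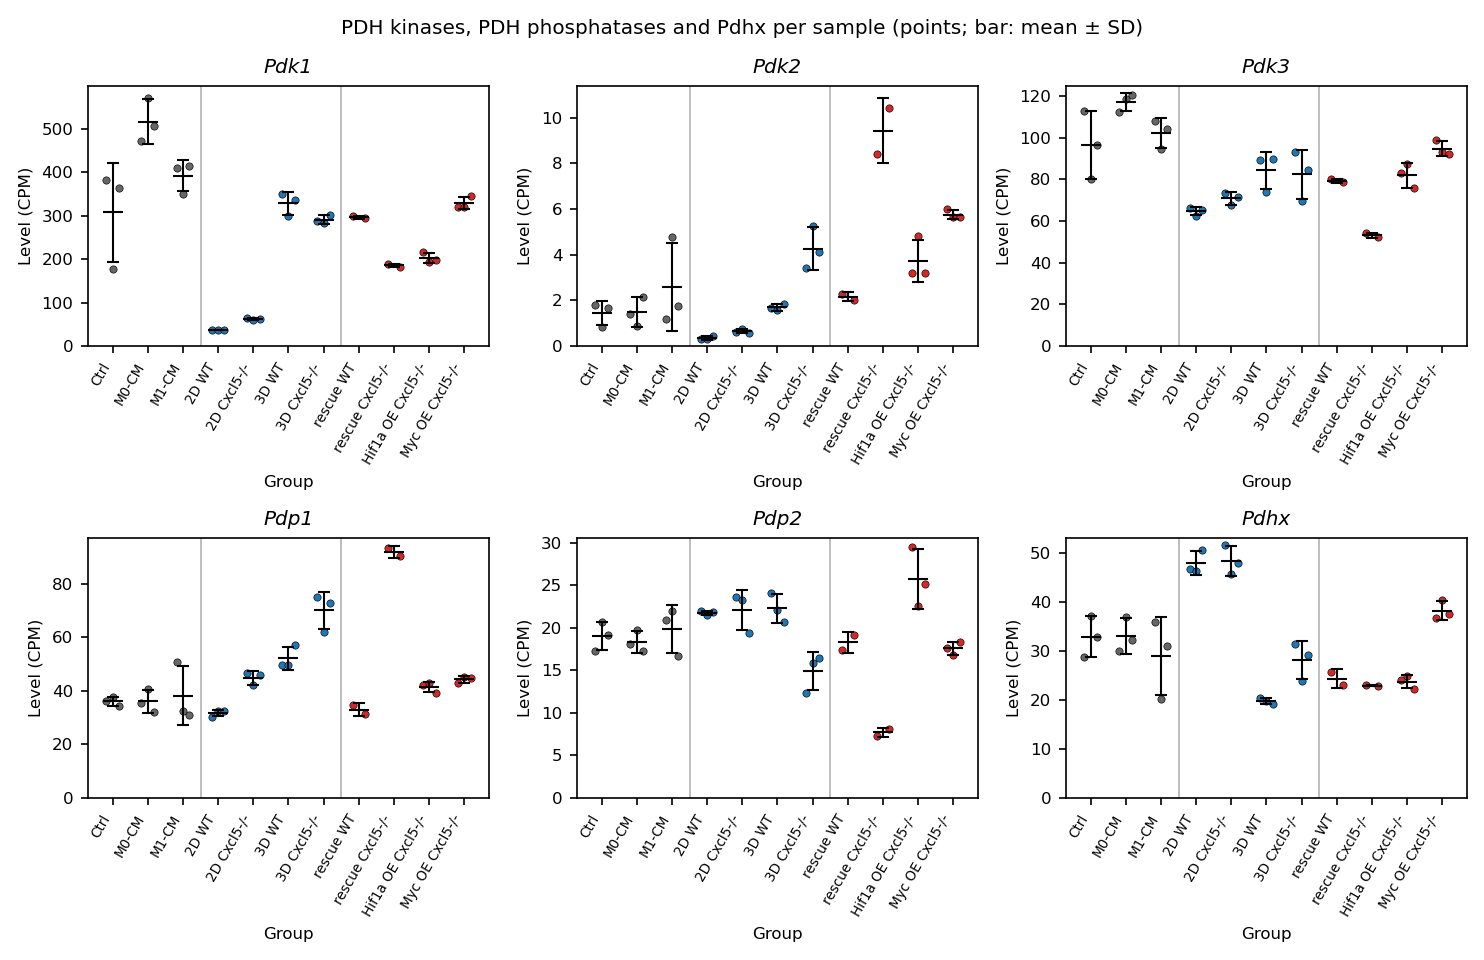
Levels in CPM of 3 PDH kinases, 2 PDH phosphatases and Pdhx in all 31 samples, with points for samples and bars for mean ± SD; grey, blue and red mark the 3 tables, which were scaled separately. Pdk1 is low only in the 2D samples, at 36.5 to 37.8 CPM in WT, and Pdp1 and Pdk2 are highest in rescue Cxcl5-/-.

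Within the PDH complex, Pdhx, the subunit that anchors the E3 enzyme, fell most, from 46.9, 46.4 and 50.7 CPM to 20.4, 19.8 and 19.2 CPM, a log2 fold change of -1.28 ± 0.10 (adjusted p = 2.4e-07). Dld, the E3 dehydrogenase shared with the 2-oxoglutarate dehydrogenase complex, went from 119, 126 and 131 CPM to 75.2, 89.6 and 67.5 CPM (-0.69 ± 0.11). Dlat, the E2 core, went from 103, 96.9 and 107 CPM to 69.8, 62.5 and 66.2 CPM (-0.63 ± 0.09). In each of these 3 genes all 3D WT samples lay below all 2D WT samples. Pdha1 and Pdhb encode the E1 subunits. Pdha1 had 269, 290.1 and 302 CPM and then 190.1, 202 and 183 CPM (-0.58 ± 0.08), and Pdhb had 102, 97.3 and 97.2 CPM and then 76.0, 72.3 and 70.1 CPM (-0.44 ± 0.08), both without overlap. Pdha1 overlaps Map3k15 over 426 bases of exon, and Pdhb has a processed pseudogene 97% identical over 1079 bases, so reads could be split there and these values are uncertain. The carriers Mpc1 and Mpc2, which together form the pyruvate channel of the inner membrane, fell by 0.41 ± 0.12 and 0.38 ± 0.12 on the log2 scale. Their 2D WT samples held 60.7 to 64.6 CPM and 38.0 to 42.9 CPM. Mpc1 also has near-identical pseudogenes.

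Pcx, which makes oxaloacetate from pyruvate, had 90.2, 71.1 and 92.1 CPM in 2D WT and 45.2, 27.0 and 38.7 CPM in 3D WT. It fell by 1.19 ± 0.16 on the log2 scale (adjusted p = 2.9e-05), and the groups did not overlap. Pck2, which turns oxaloacetate into phosphoenolpyruvate in mitochondria, rose slightly, by 0.25 ± 0.09 (adjusted p = 0.039).

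Among the enzymes from citrate to 2-oxoglutarate the NAD-dependent isocitrate dehydrogenase was split by subunit. Idh3a, the catalytic subunit, went from 83.4, 84.4 and 88.6 CPM to 49.5, 48.7 and 37.5 CPM and Idh3b from 108, 99.4 and 119 CPM to 72.1, 62.1 and 60.3 CPM, with log2 fold changes of -0.92 ± 0.11 and -0.75 ± 0.10. Idh3g did not pass the test, with 97.9, 94.8 and 104 CPM and 111, 95.9 and 104 CPM. Idh1, the cytosolic NADP-dependent enzyme, moved the other way, from 138, 136 and 142 CPM to 225, 266 and 216 CPM (0.76 ± 0.11 (adjusted p = 7.1e-05)). Its mitochondrial counterpart Idh2 was at 187 to 211 CPM and 201 to 260.0 CPM and was not called (adjusted p = 0.076). Cs, citrate synthase, fell from 223, 213 and 219 CPM to 180.1, 158 and 169 CPM and Aco1, the cytosolic aconitase, from 135, 124 and 145 CPM to 97.9, 92.0 and 88.9 CPM. Their log2 fold changes were -0.37 ± 0.08 and -0.53 ± 0.08.

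From 2-oxoglutarate onward 7 of 8 genes fell, with a median log2 fold change of -0.35. Sucla2, the ATP-forming succinyl-CoA ligase subunit, fell from 90.0, 93.7 and 94.2 CPM to 55.9, 60.6 and 50.7 CPM (-0.73 ± 0.11) and Fh1, fumarase, from 123, 123 and 130.5 CPM to 89.8, 92.8 and 83.0 CPM (-0.50 ± 0.09). Dlst, the E2 of the 2-oxoglutarate complex, went from 128, 123 and 131 CPM to 105, 90.4 and 98.5 CPM (-0.37 ± 0.09), and Ogdh, its E1, from 58.7, 61.7 and 57.2 CPM to 49.0, 45.9 and 49.2 CPM (-0.30 ± 0.08). In none of these 4 genes did the groups overlap. Suclg2, the GTP-forming subunit, had 57.2, 54.3 and 61.2 CPM and 48.8, 48.0 and 44.1 CPM (-0.29 ± 0.09), and has a pseudogene 98.9% identical over 1302 bases. Suclg1 and Mdh1 fell by 0.36 ± 0.09 and 0.33 ± 0.12 on the log2 scale. The mitochondrial malate dehydrogenase Mdh2 had 139.6, 149 and 152 CPM and 148, 124 and 129 CPM and was not called (adjusted p = 0.31).

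Of the malic enzymes, Me1 and Me2 rose in 3D WT. The cytosolic Me1 went from 45.3, 51.3 and 43.4 CPM to 82.2, 75.0 and 82.6 CPM (0.78 ± 0.10 (adjusted p = 1.9e-05)) and the mitochondrial, NAD-dependent Me2 from 130.0, 129.7 and 139 CPM to 239, 204 and 231 CPM (0.76 ± 0.10 (adjusted p = 2.4e-05)), without overlap. Me1 shares long near-identical stretches with 3 other genes, the longest 1638 bases at 98.5% identity with Gm7049, and its counts are uncertain. Me3 stayed low, with 1.31, 1.29 and 1.02 CPM and 1.61, 1.54 and 1.46 CPM (adjusted p = 0.12), and in 3D WT up to 29.8% of its count equalled what the olfactory receptor level would give over its exon length.

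**Figure D2:**
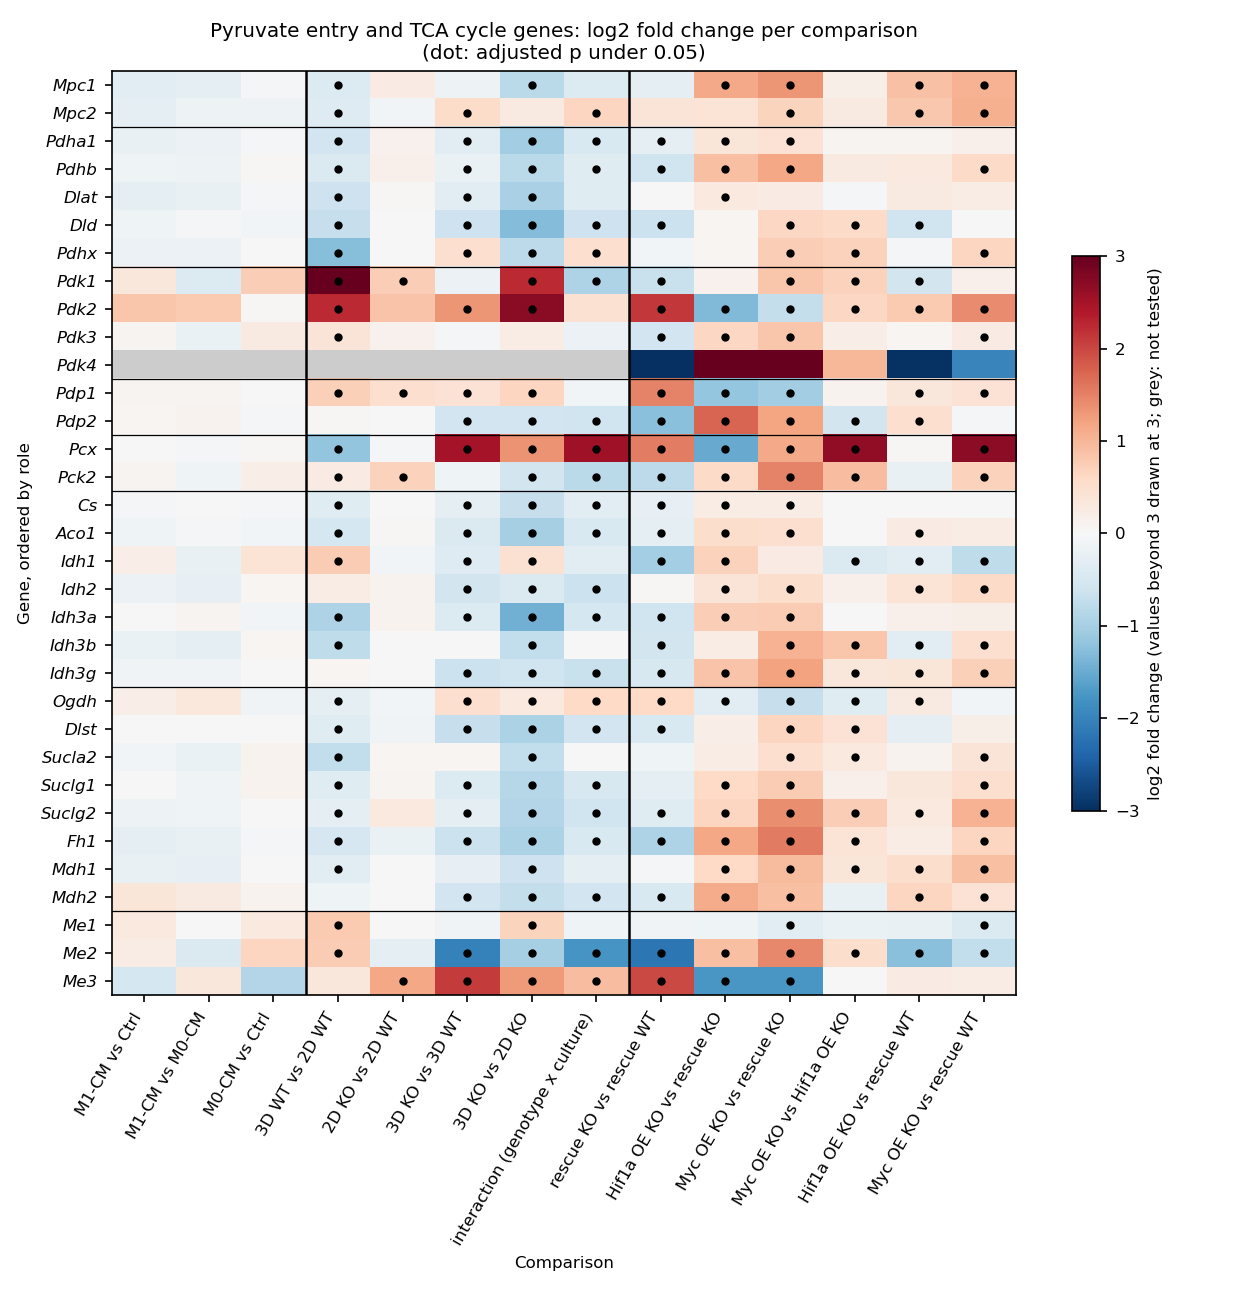
Log2 fold change of the 33 genes (rows, by role) in 14 comparisons (columns), red for higher and blue for lower in the group named first; dots mark adjusted p under 0.05 and grey cells were not tested. The 3 conditioned medium columns hold no dot, and the 3D WT vs 2D WT column holds 8 dots on red and 19 on blue. Values for Pdk4 in the rescue columns rest on at most 19 counts a sample.

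In 2D culture few genes differed between the genotypes. Over all genes 3.86% were called higher and 3.17% lower in 2D Cxcl5-/-. Of the 32 genes tested 4 rose and none fell. At an unadjusted p under 0.05 there were 6 and 2, beside 2012 and 1892 of all 21367 genes. DESeq2 called 5 higher and 0 lower, beside 1158 and 907 of the 21349 genes it tested. Pdk1 rose from 36.5 to 37.8 CPM to 64.6, 59.4 and 62.2 CPM, a log2 fold change of 0.74 ± 0.08 (adjusted p = 4.2e-05). Pck2 rose from 58.5, 46.3 and 46.4 CPM to 79.5, 80.5 and 83.4 CPM (0.69 ± 0.09 (adjusted p = 0.00027)), Pdp1 from 30.3 to 32.2 CPM to 46.8, 42.0 and 45.8 CPM (0.51 ± 0.09 (adjusted p = 0.0028)) and Me3 from 1.02 to 1.31 CPM to 2.93, 2.65 and 2.54 CPM (1.17 ± 0.17 (adjusted p = 0.00057)). In all 4 the groups did not overlap, which also held for genes not called, such as Mpc1, Pdhb and Fh1. No gene of the PDH complex and none of the 15 cycle genes from Cs to Mdh2 was called.

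In 3D culture the genotypes differed in most of these genes. In the libraries labelled 3D Cxcl5-/-, 7 of 32 genes rose and 17 fell against 3D WT, a median of -0.28 against -0.04 over all genes, where 19.7% were called higher and 25.3% lower. The split depended on scaling. Library totals moved the median of all genes to 0.35 and gave 11 higher and 3 lower, no filter on low counts gave 7 and 9, and leaving out 1 sample gave 7 higher and 13 to 19 lower. Over all genes library totals called 7671 of 21367 higher and 2445 lower. No filter called 4441 of 41215 higher and 4224 lower. Markers moved with genotype here: the 8 ductal markers summed to 854 to 1100 CPM in 3D WT and 218 to 238 CPM in 3D Cxcl5-/-, and 4 fibroblast markers to 150 to 158 and 392 to 449 CPM. The part of these shifts in the results below was not tested. By the methods of the study these were cultures of Panc02 cells without other cell types. Pdgfrb, a fibroblast marker, was at 152 CPM on average in 2D WT. In bulk samples a change in the share of cells in a given state and a change in RNA per cell cannot be told apart.

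Pcx and Me2 changed most, in opposite directions. Pcx went from 45.2, 27.0 and 38.7 CPM in 3D WT to 222, 193 and 212 CPM in 3D Cxcl5-/-, a log2 fold change of 2.50 ± 0.16 (adjusted p = 6.1e-08), and was 76.4 to 86.1 CPM in 2D Cxcl5-/-. Per kilobase of exon it ranked 26 of 33 in 3D WT, at 7.78 CPM, and 4 in 3D Cxcl5-/-, at 44.0 CPM. Low Pcx was not shared by the Ctrl spheroids of the conditioned medium experiment, where it ranked 5, at 44.0 CPM. The experiments were scaled separately, and a difference between them was not tested. Me2 went from 239, 204 and 231 CPM to 57.1, 47.9 and 60.2 CPM, a fall of 2.03 ± 0.10 (adjusted p = 5.5e-09), and its rank went from 9 to 24. Neither gene's groups overlapped, and neither call was lost under any alternative run. Me3 rose from 1.61, 1.54 and 1.46 CPM to 6.06, 7.26 and 6.46 CPM (2.10 ± 0.17 (adjusted p = 4.6e-07)), and Me1, with 82.2, 75.0 and 82.6 CPM and 65.9, 79.2 and 77.0 CPM, did not pass the test (adjusted p = 0.38). Me2 thus fell and Me3 rose, while Me1 was not called. Pck2 was also not called, with 57.2 to 61.6 CPM and 51.9 to 58.1 CPM.

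**Figure D3:**
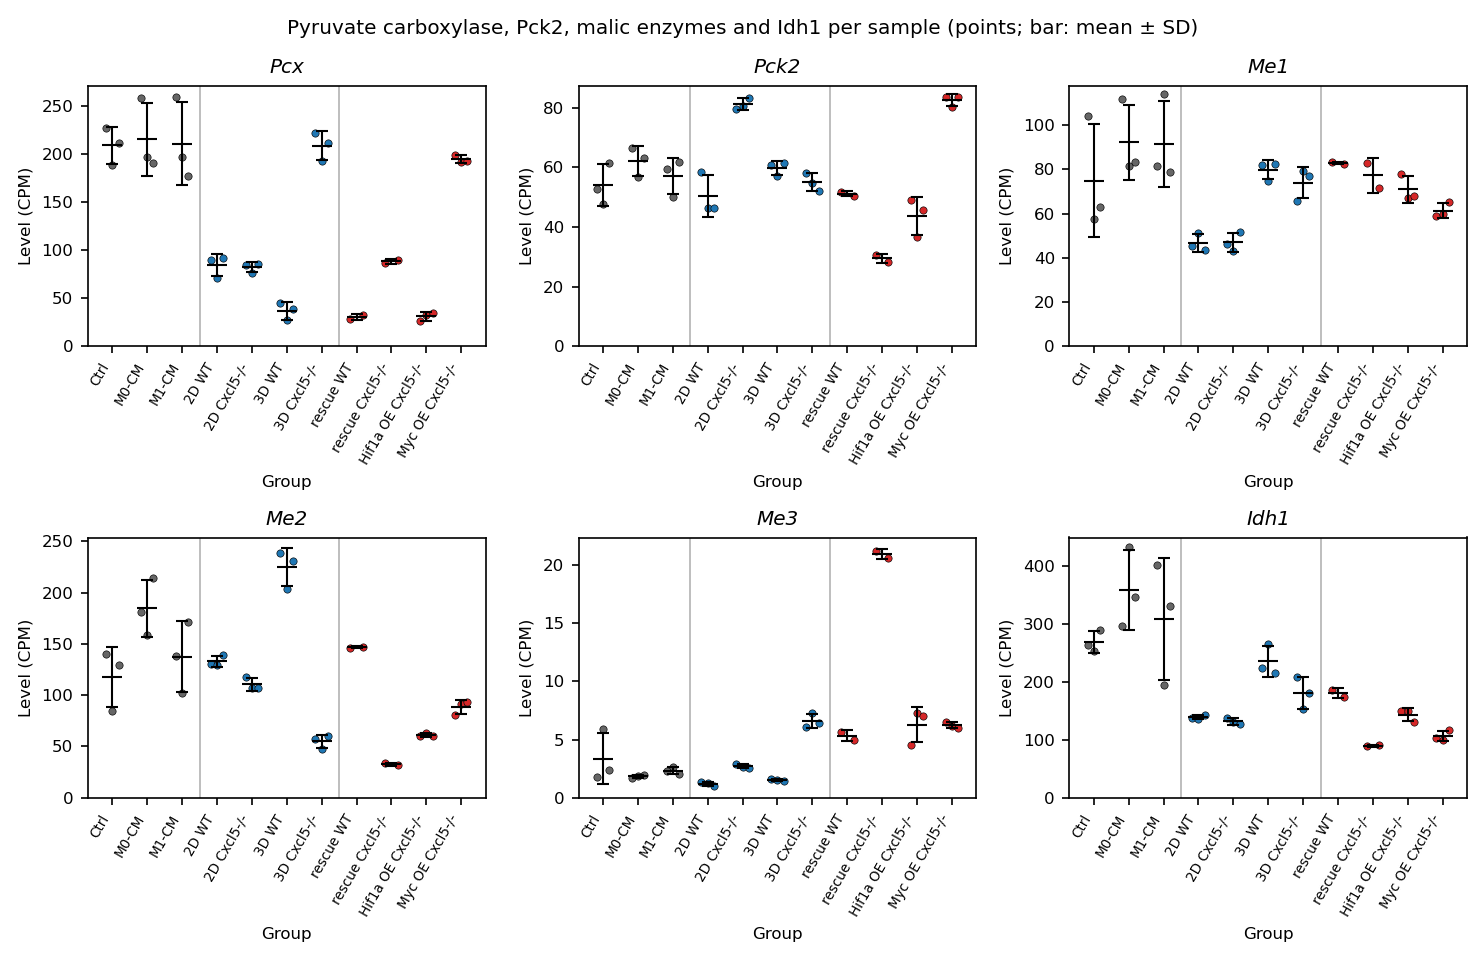
Levels in CPM of Pcx, Pck2, the 3 malic enzymes and Idh1 in all 31 samples, with points for samples and bars for mean ± SD; grey, blue and red mark the 3 tables, which were scaled separately. Pcx is lowest in 3D WT, rescue WT and Hif1a OE Cxcl5-/-, and Me2 is highest in 3D WT, at 204 to 239 CPM, and lowest in rescue Cxcl5-/-.

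Regulators of the PDH complex did not move as one. Pdk2 rose from 1.69, 1.56 and 1.84 CPM to 3.41, 5.27 and 4.14 CPM, a log2 fold change of 1.33 ± 0.23 (adjusted p = 0.00035), and Pdp1, a phosphatase with the opposite action, also rose, from 49.6, 49.6 and 57.1 CPM to 75.0, 62.1 and 72.8 CPM (0.42 ± 0.09 (adjusted p = 0.0016)). Pdp2 fell from 24.1, 22.1 and 20.7 CPM to 12.4, 15.9 and 16.4 CPM (-0.58 ± 0.12 (adjusted p = 0.0013)). Pdk1, the abundant kinase, had 287, 283 and 302 CPM against 298 to 350.4 CPM in 3D WT and was not called (adjusted p = 0.086), and Pdk3 overlapped between genotypes at 74.1 to 89.9 CPM and 69.6 to 93.0 CPM. From 2D to 3D, Pdk1 rose in Cxcl5-/- cells by 2.23 ± 0.08 on the log2 scale, and the test of the difference from the rise in WT cells gave -0.92 ± 0.11 (adjusted p = 6.4e-05). Pdk2 made up 1.93% ± 0.566 (SD, n = 3) of the summed kinase level per kilobase in 3D Cxcl5-/- against 0.711% ± 0.0416 in 3D WT.

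In the PDH complex, Dld fell from 75.2, 89.6 and 67.5 CPM to 53.6, 46.3 and 51.9 CPM (-0.61 ± 0.11), while Pdhx rose from 20.4, 19.8 and 19.2 CPM to 31.4, 23.9 and 29.3 CPM (0.51 ± 0.10). Pdha1 and Dlat fell by 0.33 ± 0.08 and 0.31 ± 0.09 on the log2 scale, reaching 157, 143 and 157 CPM and 61.1, 49.5 and 49.0 CPM. Pdhb, with 67.7, 59.4 and 61.7 CPM, fell by 0.21 ± 0.08 (adjusted p = 0.046). With library totals Pdha1, Pdhb and Dlat were on the other side of 0 and not called. Carrier Mpc2 rose by 0.55 ± 0.12 (adjusted p = 0.0026), and Mpc1 was not called (adjusted p = 0.31).

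From citrate to 2-oxoglutarate 6 of 7 genes fell and none rose. Idh3g went from 111, 95.9 and 104 CPM to 76.5, 59.4 and 64.3 CPM (-0.63 ± 0.10 (adjusted p = 0.00013)) and Idh2 from 260.0, 201 and 241 CPM to 166, 149 and 163 CPM (-0.55 ± 0.10 (adjusted p = 0.00045)). In both, every 3D Cxcl5-/- sample was below every 3D WT sample. Aco1 reached 70.5, 65.9 and 71.1 CPM (-0.43 ± 0.08), Idh3a 34.6, 34.7 and 33.5 CPM (-0.40 ± 0.11), Idh1 208, 152 and 181 CPM (-0.39 ± 0.11) and Cs 134, 135 and 143 CPM (-0.30 ± 0.08). Cs was reversed under library totals, and Idh1 lost its call when replicate 2 of 3D Cxcl5-/- was left out, with -0.24. Idh3b, with 71.1, 57.4 and 65.6 CPM, did not pass the test (adjusted p = 0.99).

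Over the rest of the cycle 5 of 8 genes fell, and Ogdh rose. Dlst went from 105, 90.4 and 98.5 CPM to 53.8, 60.5 and 67.7 CPM (-0.69 ± 0.09 (adjusted p = 3.6e-05)), Fh1 from 89.8, 92.8 and 83.0 CPM to 61.3, 50.3 and 58.2 CPM (-0.65 ± 0.09 (adjusted p = 5.0e-05)) and Mdh2 from 148, 124 and 129 CPM to 78.1, 96.0 and 96.1 CPM (-0.57 ± 0.11 (adjusted p = 0.00066)). The E1 and E2 genes of the 2-oxoglutarate dehydrogenase complex were thus called in opposite directions, since Ogdh went from 49.0, 45.9 and 49.2 CPM to 61.9, 76.6 and 66.9 CPM (0.51 ± 0.08 (adjusted p = 0.00017)). Suclg1 and Suclg2 fell by 0.40 ± 0.09 and 0.30 ± 0.09, the latter reaching 42.0, 33.2 and 39.3 CPM. Sucla2, with 68.4, 50.5 and 55.2 CPM, and Mdh1, with 118 to 181 CPM, were not called (adjusted p = 0.68 and 0.11).

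Whether the genotype effect differed between 3D and 2D was tested as an interaction, for which 11.1% of all genes were called higher and 16.1% lower. Of the 32 genes 5 were called with a positive difference, 3D minus 2D, and 17 with a negative one. Pcx had the largest positive difference, 2.53 ± 0.22, and Me2 the largest negative one, -1.76 ± 0.14. Library totals gave 5 and 3, and no filter gave 5 and 7. Over all genes library totals gave 4585 and 1359 of 21367, and no filter gave 2322 and 2115 of 41215. In Cxcl5-/- cells the step from 2D to 3D raised 8 genes and lowered 22, against 28.7% higher and 28.2% lower over all genes. There Pcx rose, by 1.34 ± 0.16 (adjusted p = 6.5e-06), where it had fallen in WT cells.

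Among 25 neighbouring genes of shuttles, succinate dehydrogenase, lipoate synthesis and lactate, 21 were tested in 3D, and 1 rose and 15 fell in 3D Cxcl5-/- (median -0.48), beside the 19.7% higher and 25.3% lower of all genes. With library totals 5 rose and 9 fell (median -0.09), beside 7671 higher and 2445 lower of all 21367 genes. The citrate carrier Slc25a1 fell by 1.25 ± 0.13, ATP citrate lyase Acly by 1.21 ± 0.09, lactate dehydrogenase Ldha by 1.16 ± 0.10 and the aminotransferase Got1 by 1.16 ± 0.11 on the log2 scale. Ldha, which turns pyruvate into lactate, was 2810.1, 2598 and 2494 CPM in 3D WT and 1218, 1006 and 1314 CPM in 3D Cxcl5-/-. From 2D WT to 3D WT 6 neighbouring genes rose and 8 fell, beside 22.2% and 22% of all genes. With library totals 4 rose and 13 fell, beside 3563 and 6712 of all 21367 genes. The largest changes were Slc25a1 at 1.46 ± 0.13, Ldha at 1.24 ± 0.10, Slc25a13 at -1.10 ± 0.08 and Acly at 0.95 ± 0.09.

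The rescue experiment repeated the genotype comparison in samples shared with none of the above. In rescue Cxcl5-/- 5 of 33 genes rose and 18 fell against rescue WT, where 17.6% of all 28730 genes tested were called higher and 24.3% lower. The median was -0.29, and that over all genes was -0.30. After genes were kept only where the expected floor was at most 10% of the count, 4 of 30 rose and 18 fell, with medians of -0.30 and -0.02. Of all 11612 genes tested under this limit, 3599 were called higher and 3825 lower. Leaving out 1 sample gave 11 to 14 lower, the lowest without replicate 2 of rescue Cxcl5-/-. Of 32 genes tested in both experiments, 5 were called higher in both, 14 lower in both, and none in opposite directions. Of all 21058 genes tested in both, 13.9% were called higher in both, 15.3% lower in both and 1.24% in opposite directions. Markers moved with genotype here too: the ductal markers summed to 857 to 904 CPM in rescue WT and 288 to 303 CPM in rescue Cxcl5-/-, and the fibroblast markers to 72.1 to 76.0 and 371 to 377 CPM. Their part in the results of this experiment was not tested.

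Genes called higher in both were Pcx, Me3, Pdk2, Pdp1 and Ogdh. Pcx had 28.3 and 32.6 CPM in rescue WT and 86.3 and 90.2 CPM in rescue Cxcl5-/- (1.54 ± 0.13 (adjusted p = 5.7e-06)). Me3 had 5.67 and 4.98 CPM and 21.2 and 20.6 CPM (1.98 ± 0.21 (adjusted p = 2.7e-05)), and up to 34.9% of its count in rescue WT equalled the olfactory receptor floor. Pdk2 had 2.29 and 2.02 CPM and 8.42 and 10.4 CPM (2.13 ± 0.24 (adjusted p = 4.5e-05)), with a floor of up to 18.6% in rescue WT. Pdp1 rose from 34.6 and 31.2 CPM to 93.3 and 90.3 CPM (1.48 ± 0.09 (adjusted p = 5.1e-07)) and Ogdh from 65.7 and 60.1 CPM to 94.2 and 96.0 CPM (0.60 ± 0.09 (adjusted p = 0.0003)). None of these groups overlapped, but with 2 samples each this also held for genes not called, such as Mpc1, Mpc2 and Sucla2.

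Genes called lower in both included Me2, at 146 and 147 CPM in rescue WT and 33.8 and 31.6 CPM in rescue Cxcl5-/- (-2.16 ± 0.10 (adjusted p = 7.7e-08)). Pdp2 fell from 17.4 and 19.2 CPM to 7.26 and 8.08 CPM (-1.25 ± 0.14), Idh1 from 186 and 175 CPM to 88.6 and 90.1 CPM (-1.01 ± 0.10) and Fh1 from 55.2 and 50.9 CPM to 28.2 and 27.2 CPM (-0.94 ± 0.11). In these 4 genes the 2 groups did not overlap, which again was also so for genes not called. Pdha1, Pdhb, Dld, Cs, Aco1, Idh3a, Idh3g, Dlst, Suclg2 and Mdh2 were also lower in both, with log2 fold changes in the rescue experiment from -0.64 for Dld to -0.24 for Cs. Pdk1, Pdk3, Pck2 and Idh3b were called in the rescue experiment alone. Pdk1 fell from 299 and 294 CPM to 188 and 183 CPM (-0.68 ± 0.09 (adjusted p = 0.00012)), Pdk3 by 0.58 ± 0.09, Pck2 by 0.80 ± 0.12 and Idh3b by 0.55 ± 0.10. A difference between the experiments was not tested for them. Called in the first alone were Mpc2, Dlat, Pdhx, Idh2 and Suclg1.

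**Figure D4:**
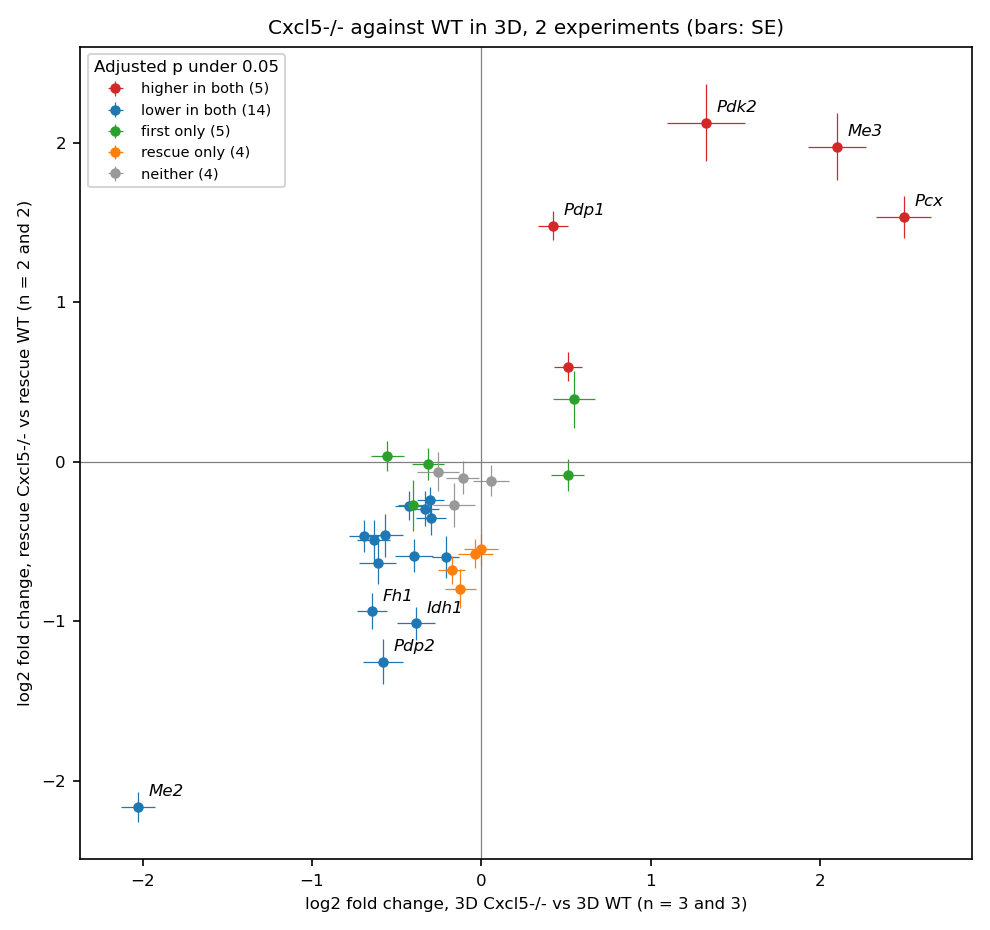
Log2 fold change of Cxcl5-/- against WT in 3D, in the first experiment (x axis, n = 3 and 3) and the rescue experiment (y axis, n = 2 and 2), for the 32 genes tested in both; bars are SE and colours give the calls. Pcx, Me3, Pdk2, Pdp1 and Ogdh are above 0 on both axes, and Me2, at -2.03 and -2.16, stands alone at the lower left.

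Most of these genes were higher in each overexpressing line than in rescue Cxcl5-/-. No Cxcl5-/- line with an empty vector was among the samples. The factor and the making of the line therefore cannot be told apart here, also where a gene is said to change with Hif1a or Myc. In Hif1a OE Cxcl5-/- 19 rose and 5 fell against rescue Cxcl5-/-, where 20.5% of all genes were called higher and 15% lower. In Myc OE Cxcl5-/- 25 rose and 5 fell, against 21.6% and 18% of all genes. The medians were 0.41 and 0.76, and over all genes 0.16 and 0.11. The shares of all genes take in many near the floor. Of the 11612 genes kept by the floor limit above, 3921 were called higher and 3805 lower with Hif1a. With Myc 4078 of them were called higher and 4249 lower. These comparisons share the 2 rescue Cxcl5-/- samples with each other and with the genotype comparison, and the values of each are given side by side below.

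Pcx was called in opposite directions with the 2 factors. It had 86.3 and 90.2 CPM in rescue Cxcl5-/-, 25.7, 32.5 and 34.9 CPM in Hif1a OE Cxcl5-/- and 199.6, 192 and 193 CPM in Myc OE Cxcl5-/-. It fell by 1.51 ± 0.12 with Hif1a and rose by 1.14 ± 0.12 with Myc on the log2 scale, and Myc against Hif1a gave 2.65 ± 0.11 (adjusted p = 6.9e-08). Hif1a OE Cxcl5-/- was not called against rescue WT (0.03 ± 0.12, adjusted p = 0.89), with values that overlapped, and Myc OE Cxcl5-/- was above it by 2.68 ± 0.13. Pck2 went to 49.0, 36.5 and 45.6 CPM with Hif1a and 83.5, 80.1 and 83.7 CPM with Myc, from 30.6 and 28.4 CPM, and Myc against Hif1a gave 0.92 ± 0.10 (adjusted p = 7.1e-05). Over all genes 9.54% were called higher and 9.73% lower with Myc than with Hif1a, and of the 33 genes 14 were higher and 3 lower. Of the 11612 genes kept by the floor limit, 2369 were called higher and 2435 lower. The marker sums also differed between the factors, and their part was not tested: ductal markers were at 707 to 839 CPM with Hif1a and 268 to 313 CPM with Myc, and fibroblast markers at 130 to 167 and 310 to 341 CPM.

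Among kinases and phosphatases, Myc against Hif1a was called for Pdk1 (0.70 ± 0.07 (adjusted p = 4.7e-05)), Pdk2 (0.62 ± 0.19 (adjusted p = 0.04)) and Pdp2 (-0.55 ± 0.11 (adjusted p = 0.0044)), and not for Pdp1 (adjusted p = 0.41) or Pdk3 (adjusted p = 0.07). Pdk1 had 217, 194 and 197 CPM with Hif1a, not called against rescue Cxcl5-/- (0.13 ± 0.08, adjusted p = 0.24), and 319.8, 321 and 346 CPM with Myc (0.83 ± 0.08 (adjusted p = 1.2e-05)). The Myc samples lay above the Hif1a samples without overlap. Pdk2 fell to 3.22, 4.81 and 3.18 CPM with Hif1a and 5.99, 5.63 and 5.66 CPM with Myc, by 1.34 ± 0.21 and 0.71 ± 0.21, and the latter lost its call without replicate 2 of rescue Cxcl5-/- (-0.54). Pdp1 came down to 42.1, 42.8 and 39.1 CPM and 42.8, 45.1 and 44.9 CPM, and Pdp2 went up to 29.5, 22.5 and 25.2 CPM and 17.6, 16.8 and 18.3 CPM. Pdk3 rose by 0.63 ± 0.08 and 0.83 ± 0.08.

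Of the 15 cycle genes from Cs to Mdh2, most rose with each factor, with 6 of 7 from citrate to 2-oxoglutarate in each case and then 5 of 8 with Hif1a and 7 of 8 with Myc. Of the 3 malic enzymes only Me2 rose. Me3 fell to 4.53, 7.29 and 6.99 CPM with Hif1a and 6.49, 6.18 and 5.99 CPM with Myc, and Me2 rose to 60.3, 63.4 and 60.1 CPM and 80.3, 91.1 and 93.7 CPM. Both Me2 groups stayed below rescue WT, by 1.26 ± 0.08 and 0.73 ± 0.08 on the log2 scale. Me1 was not called with Hif1a and fell by 0.33 ± 0.09 with Myc. Fh1 rose by 1.15 ± 0.11 and 1.57 ± 0.11, reaching 60.8, 69.9 and 53.9 CPM and 83.7, 79.6 and 83.7 CPM. Suclg2 rose by 0.65 ± 0.10 and 1.40 ± 0.10, and Mdh2 by 1.11 ± 0.13 and 0.90 ± 0.13. Ogdh went down, by 0.32 ± 0.08 and 0.69 ± 0.08, to 77.5, 72.8 and 78.8 CPM and 61.7, 60.4 and 55.3 CPM. Idh1 rose with Hif1a, to 149, 149.8 and 131 CPM (0.68 ± 0.10 (adjusted p = 0.0002)), and was not called with Myc, at 103, 99.7 and 117 CPM. Idh3b showed the reverse, with 65.6, 66.4 and 65.5 CPM (adjusted p = 0.075) and 128, 116 and 105 CPM (1.05 ± 0.09). Tests of Myc against Hif1a called both, Idh1 at -0.43 ± 0.08 and Idh3b at 0.82 ± 0.08.

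In the PDH complex and the carriers, Pdhb rose by 0.90 ± 0.12 with Hif1a and 1.16 ± 0.12 with Myc, and Mpc1 rose by 1.14 ± 0.13 and 1.32 ± 0.13. Mpc1 went from 35.0 and 35.1 CPM to 77.1, 88.5 and 65.8 CPM and 96.1, 80.7 and 85.8 CPM, above both rescue WT samples (45.4 and 39.2 CPM). Dld and Pdhx were called higher with Myc (0.63 ± 0.12 and 0.74 ± 0.09) and not with Hif1a (0.05 ± 0.12 and 0.05 ± 0.09), and Myc against Hif1a gave 0.58 ± 0.11 (adjusted p = 0.0027) and 0.69 ± 0.08 (adjusted p = 0.00012). Dlat was called higher with Hif1a (0.29, adjusted p = 0.031) and not with Myc (0.24, adjusted p = 0.055). Myc against Hif1a was not called for it (adjusted p = 0.81). It was at 48.7 to 54.5 CPM in rescue Cxcl5-/- and 56.1 to 64.1 CPM with Myc. Sucla2 rose with Myc by 0.51 ± 0.09.

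**Figure D5:**
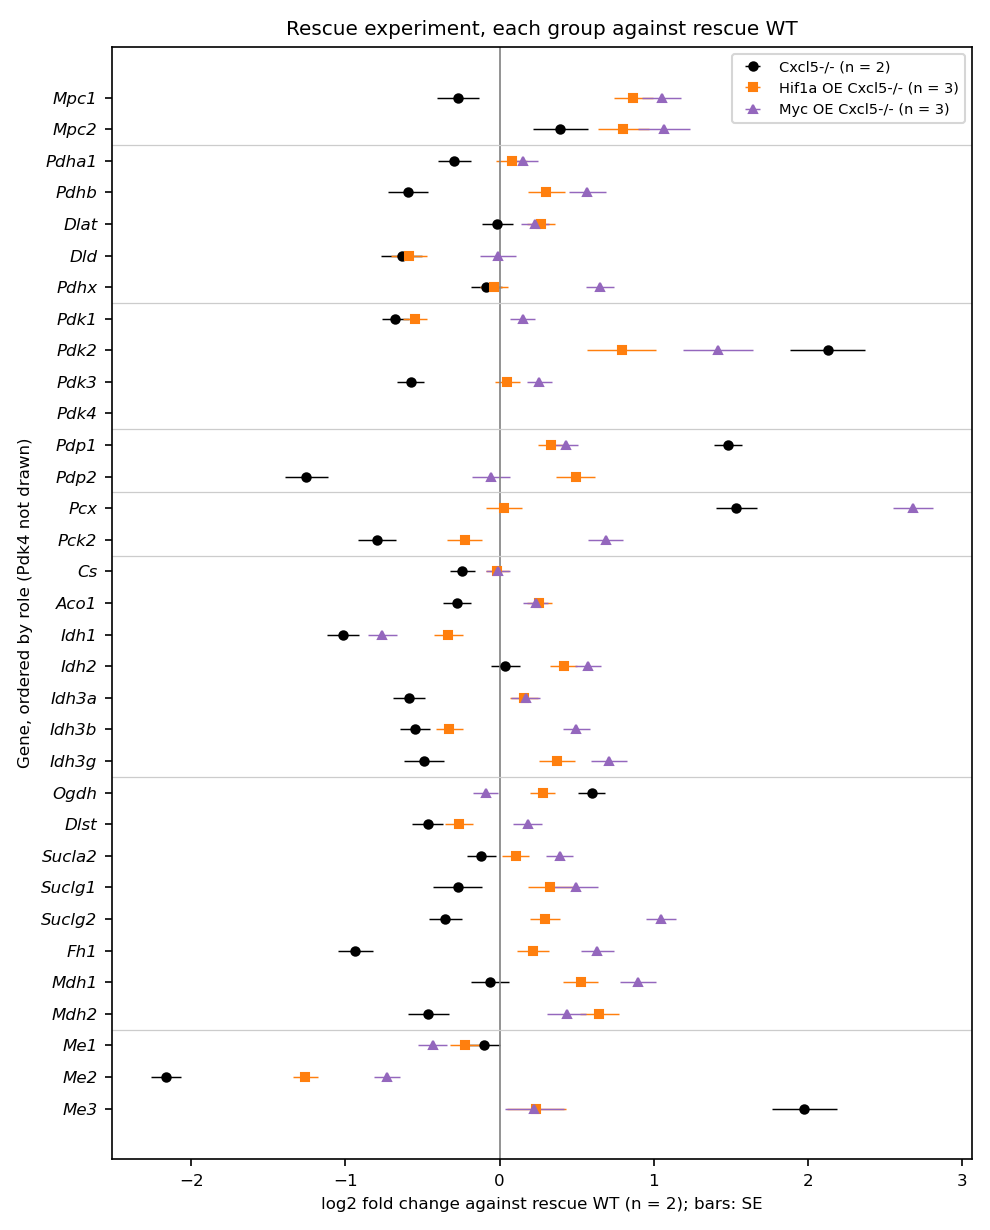
Log2 fold change against rescue WT (n = 2) of Cxcl5-/- (black), Hif1a OE Cxcl5-/- (orange) and Myc OE Cxcl5-/- (purple) for each gene by role, with SE as bars; Pdk4 is not drawn. Pcx lies at 0.03 with Hif1a and 2.68 with Myc, and Me2 stays below 0 in all 3 groups.

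Against rescue WT, 12 genes were higher and 5 lower in Hif1a OE Cxcl5-/-, with 13.9% and 10.3% of all genes, and 18 were higher and 3 lower in Myc OE Cxcl5-/-, with 17.1% and 14.7%. These splits turned on scaling. With library totals they were 4 and 7 for Hif1a and 10 and 6 for Myc. Over all 28730 genes library totals called 2209 higher and 3587 lower for Hif1a, and 2477 and 6217 for Myc. With the low-floor genes the splits were 5 and 8 for Hif1a and 15 and 4 for Myc. Of all 11612 genes tested there, 2401 were called higher and 2331 lower for Hif1a, and 3033 and 2895 for Myc.

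No change with conditioned medium was called among these genes. No gene of the 32 tested was called by edgeR in M1-CM or M0-CM against Ctrl, or in M1-CM against M0-CM, and DESeq2 also called 0 in each. Over all 19207 genes edgeR called 0.0156% higher in M1-CM against Ctrl, 0.0156% against M0-CM, and 0% in M0-CM against Ctrl. DESeq2 called 69 of 19167 genes higher and 28 lower in M1-CM against Ctrl. In M1-CM against M0-CM it called 21 and 11, and in M0-CM against Ctrl 14 and 3. At an unadjusted p under 0.05 of the edgeR test there were 2 higher, in M0-CM against Ctrl, and 0 lower in any. They were Pdk1 and Me2. Of all 19207 genes 412 were higher and 157 lower at that threshold in M0-CM against Ctrl. Pdk1 had 382, 177 and 364 CPM in Ctrl, 471, 571 and 506 CPM in M0-CM and 409.7, 350.3 and 415 CPM in M1-CM, and replicate 2 of Ctrl was the lowest of the 9. Me2 had 139.7, 84.8 and 129.5 CPM, 181, 159 and 214 CPM and 138, 102 and 172 CPM. Replicate 2 of M1-CM, with the smallest total of its table, was the lowest M1-CM sample for many of these genes, such as Fh1 with 95.1, 51.5 and 89.9 CPM. The SE of a log2 fold change here was 0.19 at the median gene for M1-CM against Ctrl, and 0.10 for 3D Cxcl5-/- against 3D WT. Pcx was 189 to 228 CPM in Ctrl, 191 to 259 CPM in M0-CM and 177 to 259 CPM in M1-CM.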

How the data were processed

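RNA sequencing of Panc02 cells gave 31 samples in 3 tables. The authors made stranded total RNA libraries, aligned reads to GRCm38 (mm10) with HISAT2 and deposited raw gene counts from StringTie, which are not normalized; the annotation release is not given in the sources used here. Samples were grouped by their labels. The rescue labels number the cell line name on from sample to sample, and Panc02 was taken from the study. Every column of values was used.

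Counts were tested with edgeR 4.0.16 in R 4.3.3 (quasi-likelihood test, TMM, filterByExpr by group, 1 fit per table with all its groups, Benjamini-Hochberg adjustment over all genes tested). SE is the size of the log2 fold change divided by the square root of F. Scripts were tested on simulated data. Alternatives were DESeq2 1.42.0, its size factors, library totals, other filters, a replicate block, only the compared groups and leaving out each sample. The members and lists were chosen with earlier results of these data known. Every member was named; values per sample were given where a call had an absolute log2 fold change of at least 0.58 between cultures or between 3D genotypes, or was called in both 3D genotype comparisons, and from the neighbouring genes at most 4 per comparison with the largest changes among those called. Expected floors used the mean count per kilobase of 1107 olfactory receptor genes and exon lengths of GENCODE M21. Replicate numbers did not pair samples (mean correlation of deviations between same-numbered samples 0.037, 0.025 and 0.004 in the 3 tables). No replicates were identical. Near-identical copies were sought among M21 transcripts (95% identity over at least 200 bases).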

Additional observations from a re-analysis of the deposited data

Results flagged for a closer look

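For 22 of the 32 genes tested the effect of genotype differed between 3D and 2D culture by the interaction test (adjusted p under 0.05), given here as the log2 effect in 3D minus that in 2D. It was positive for Pcx (2.53), Me3 (0.93), Mpc2 (0.64), Ogdh (0.60) and Pdhx (0.50). It was negative for Me2 (-1.76), Pdk1 (-0.92), Pck2 (-0.81), Idh2 (-0.66), Idh3g (-0.66), Dld (-0.61), Pdp2 (-0.60), Dlst (-0.59), Suclg2 (-0.59), Mdh2 (-0.57), Idh3a (-0.52), Suclg1 (-0.49), Fh1 (-0.46), Aco1 (-0.45), Pdha1 (-0.45), Pdhb (-0.36) and Cs (-0.31). With library totals the values of Pdhb and Cs reversed. Against 17 negative calls as printed there were 3 with library totals, 7 with no filter on low counts and 9 without replicate 1 of 2D Cxcl5-/-, and the count of positive calls was 5 under each of these. Over all genes the negative calls were 3431 of 21367 as printed and 1359 with library totals. They were 2115 of 41215 with no filter and 2363 of 22671 without that replicate. Libraries labelled 3D Cxcl5-/- held more Cxcl5 than 3D WT, and the part of this in these values was not tested.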

How the results depend on the processing

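Of 239 calls of single genes, 157 kept their direction and their call under every alternative run, among them each call of Pdk1, Pcx and Me2. The low-floor filter removed Me3 from the culture and rescue tables and Pdk2 from the rescue table, so 13 of the 239 calls, 10 of them among the 157, had no value there. Library totals reversed 9: for 3D Cxcl5-/- against 3D WT, Pdha1 (0.05), Pdhb (0.17), Dlat (0.07), Cs (0.09) and Suclg2 (0.08), for the interaction, Pdhb (0.00) and Cs (0.06), for Myc OE Cxcl5-/- against rescue Cxcl5-/-, Cs (-0.11), and for Myc OE Cxcl5-/- against rescue WT, Pdk3 (-0.04). They ended 55 further calls, no filter ended 33, DESeq2 10 and the low-floor genes 19, and the cause was not tested. Library totals moved the median log2 fold change of all genes from -0.04 to 0.35 for 3D Cxcl5-/- against 3D WT.

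For 3D Cxcl5-/- against 3D WT the higher count was 7, and 11 with library totals; the lower count was 17, and 3 with library totals and 9 with no filter. The interaction had 17 negative calls, and 3 with library totals and 7 with no filter. Calls over all genes moved in these runs too, as given above. In 2D Cxcl5-/-, 1 gene was lower with only the compared groups fitted. For Myc OE Cxcl5-/- against rescue Cxcl5-/-, 5 were lower, and 3 with the low-floor genes, where Pdk2 and Me3 were not tested. For Myc OE Cxcl5-/- against rescue WT, library totals gave 10 higher and 6 lower. For Hif1a OE Cxcl5-/- against rescue WT (12 higher and 5 lower), the higher count was 6 with DESeq2, 5 with its size factors, 4 with library totals, 6 with at least 10 counts in every sample, 5 with the low-floor genes and 7 with only the compared groups, and the lower count was 8 with DESeq2, 8 with its size factors, 3 with no filter, 8 with at least 10 counts in every sample and 8 with the low-floor genes. Leaving out 1 sample gave 4 to 14 higher and 3 to 6 lower for Hif1a OE Cxcl5-/- against rescue WT, 11 to 14 lower for rescue Cxcl5-/- against rescue WT, and 9 to 21 negative interactions, the fewest without replicate 1 of 2D Cxcl5-/-. Where this left a rescue group with 1 sample, that sample was assumed to vary like the other groups.

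Replicate numbers did not pair the samples. With a replicate block the 3D genotype comparison gave 7 genes higher and 17 lower, and 236 of 239 calls were unchanged. The smallest total was 41542533 counts. Pdk4, Pdk2 and Me3 had the fewest counts, and their values carry the largest share of the floor.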
